A study of Mus musculus with 9 samples.

Results

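Regulatory T cells (Tregs) are CD4+ T cells that restrain immune responses and depend on the transcription factor Foxp3. Th17 cells are CD4+ effector T cells that defend mucosal surfaces and drive tissue inflammation. Both lineages respond to TGF-beta, and they share several regulators, so genes of both were followed together. The set comprised 9 listed genes out of 47937 gene identifiers in the count table, each matched by symbol to 1 identifier. It held the Treg factor Foxp3, the Ikaros family members Ikzf2 (Helios) and Ikzf4 (Eos), the transcription factors Maf, Ahr and Rora, the cytokine subunit Ebi3, and the receptors Gpr83 and Nrp1. All 9 genes passed the filter for testing, which asks for enough reads for the library size in 3 libraries, whatever their group. Resting replicate 1, the deepest library, fell short for Ebi3 (11 counts) and Gpr83 (5 counts). The resting group alone would therefore not have passed these genes. The smallest summed count over a group was 40 (Ebi3 in resting cells).

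RNA was sequenced from 9 libraries of C57BL/6 mouse spleen CD4+ T cells, which had been enriched on magnetic beads for CD62L, a homing receptor of resting T cells. Of these, 3 were resting cells (Resting), 3 were cells activated with plate-bound antibodies to CD3 and CD28 in the solvent DMSO (Th0_Ctrl, control), and 3 were activated in the same way with TEPP-46 (Th0_TEPP). The compound TEPP-46 promotes the active tetramer of pyruvate kinase M2, an enzyme of glycolysis. It was added 15 min before activation, at a concentration labelled only as 50 to 100 µM. No cytokines or antibodies that steer cells to the Treg or Th17 fate are named in the labels. The sources used here do not give the animals' age and sex, the length of activation or any culture of the resting cells. The replicates are numbered 1, 4 and 5 in each group. The labels do not say whether each library is from its own animal. The p-values therefore rest on the spread among these samples alone, and that spread may be technical. CD62L enrichment does not remove CD62L+ Tregs, and in bulk RNA a smaller share of Tregs and less Treg RNA per cell cannot be told apart.

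Total counts ran from 2397304 to 5030643 per library. TEPP-46 replicate 4 had the lowest total, with counts in 14438 genes, beside 16939 to 18210 genes in the other libraries. Levels are in CPM (counts per 1000000 on library sizes scaled by TMM), and a floor of 3 counts lay between 0.596 and 1.25 CPM. Such floors cover counting error only. Some libraries stood apart. The nuclear RNA Malat1 reached 12220 and 12770 CPM in TEPP-46 replicates 4 and 5, against 2523 in TEPP-46 replicate 1, 2058 to 4104 in control and 4355 to 8349 in resting libraries. The summed level of 15 B cell and plasma cell markers was 2881 to 4941 CPM in resting, 237 to 266 in control and 751 to 1327 in TEPP-46 libraries. Platelet and red cell markers summed to 17.0, 306 and 86.0 CPM in TEPP-46 replicates 1, 4 and 5, and to 11.1 CPM or less elsewhere. Of 8 neutrophil markers, the sum was 182 CPM in TEPP-46 replicate 4, 1.37 and 4.51 in the other TEPP-46 libraries, at most 1.26 in control and 106 to 185 in resting libraries. Myeloid and dendritic cell markers summed to 94.7 CPM or less in every library, with the dendritic cell marker Siglech at 1 count in all. The CD8 genes summed to at most 22.1 CPM. The NK and innate lymphoid list (238 to 454 CPM) was carried by Gata3, which T cells also express. By the same edgeR test 7 of 12 B cell markers tested fell on activation and 6 were higher with TEPP-46 than in control cells, where both platelet markers tested, 2 of 4 neutrophil, 1 of 6 myeloid and 1 of 4 NK markers were also higher. Without 1 library these counts ran from 4 to 9 for the B cell falls, and with TEPP-46 from 1 to 9 for B cell, 1 to 3 for platelet, 0 to 3 for neutrophil and 0 to 3 for myeloid markers. The 9 RNA quality genes (Malat1, Neat1, ribosomal and mitochondrial genes) summed to 12560 to 14110 CPM in resting, 9607 to 11130 in control and 12190 to 19310 in TEPP-46 libraries. Malat1 made up most of this sum in TEPP-46 replicates 4 and 5. Each ribosomal gene listed was lower in TEPP-46 replicate 4 than in every control library. Rplp0 was at 2658, 684 and 1484 CPM in TEPP-46 replicates 1, 4 and 5, beside 1405 to 1938 in control. Rps18 was at 946, 171 and 453 CPM, beside 717.5 to 955.4 in control. The 12 T cell identity genes had counts in every library, with sums of 6956 to 11130 CPM in resting, 6019 to 7919 in control and 9616 to 11850 in TEPP-46 libraries, and 3 of them were called higher with TEPP-46 than in control cells (1 to 7 without a library). These markers bear on all comparisons below, and their part in the results was not tested.

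**Figure D1:**
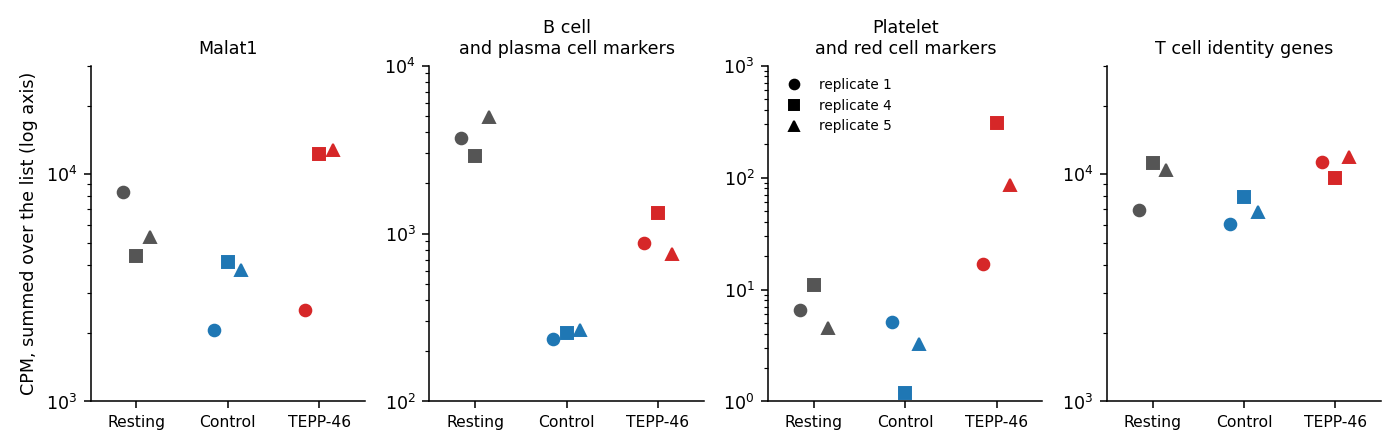
Malat1 and the summed marker lists in each library, in CPM on log axes, with 1 point per library (circle, square and triangle for replicates 1, 4 and 5). TEPP-46 replicates 4 and 5 have more Malat1 and more platelet and red cell marker RNA than TEPP-46 replicate 1, and all TEPP-46 libraries have more B cell marker RNA than the control libraries.

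Activation moved 4 of the 9 genes, in both directions. Ebi3 and Ahr rose, while Maf and Nrp1 fell, at an adjusted p below 0.05 in the quasi-likelihood test of edgeR, with p-values adjusted by Benjamini-Hochberg over 12536 genes. By the same rule 31.2% of all genes tested were called, 15.5% as higher and 15.8% as lower. The 9 genes had a median log2 fold change of -0.36, beside -0.04 over all genes. With TEPP-46, Maf and Foxp3 were higher than in control cells and 0 members were called lower in edgeR (1 at an unadjusted p below 0.05, Ahr, which DESeq2 called). Of all genes, 16.2% were called in that comparison, 9.72% higher and 6.43% lower, and the medians were 0.02 for the 9 genes and 0.04 for all. Higher genes made up 60.2% of those calls, but 43.8% when libraries were scaled by total counts alone, which moved the median of all genes to -0.09, and 47.6% in limma-voom. Against resting cells, TEPP-46 cells had more Ebi3 and less Nrp1, where 10.3% of genes were called, 6.37% higher and 3.92% lower, and the medians were 0.11 and 0.02. Each pair of comparisons shares 1 group of libraries, so they are not independent of each other. On activation the libraries of the groups compared did not overlap for 6 of the 9 genes, beside 59.2% of all genes tested. With TEPP-46 against control cells this held for 3 (39.7% of all), and against resting cells for 2 (26.8%). These shares are near those of all genes, so a gap between groups, where given below, does not set a member apart.

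**Figure D2:**
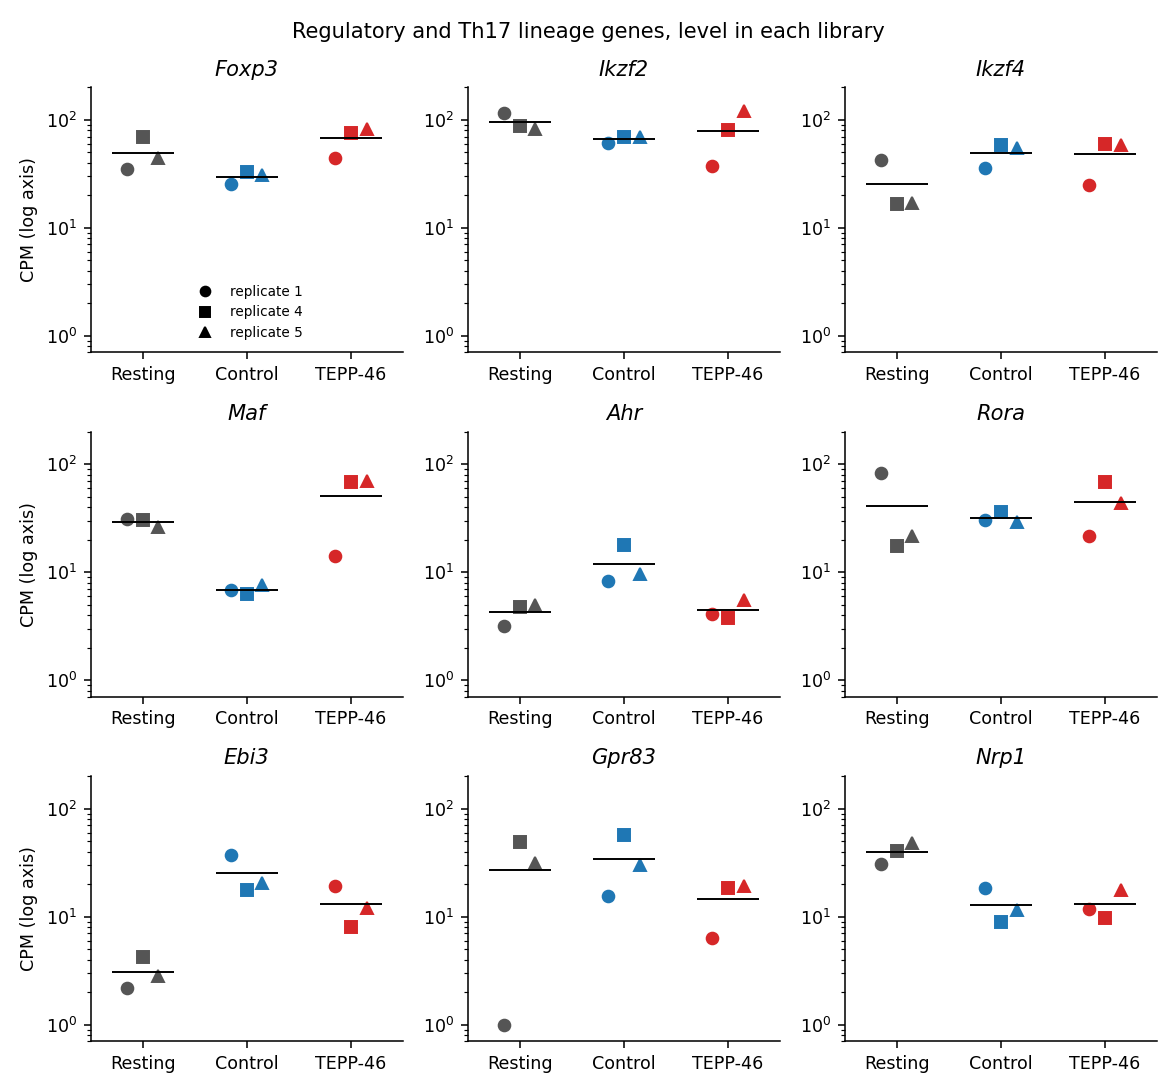
Level of each gene in each of the 9 libraries, in CPM on a log axis, with circles, squares and triangles for replicates 1, 4 and 5 and a line at the mean of each group. Maf is lowest in the 3 control libraries, Ebi3 is lowest in the 3 resting libraries, and resting replicate 1 has far less Gpr83 and more Rora than the other resting libraries.

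**Figure D3:**
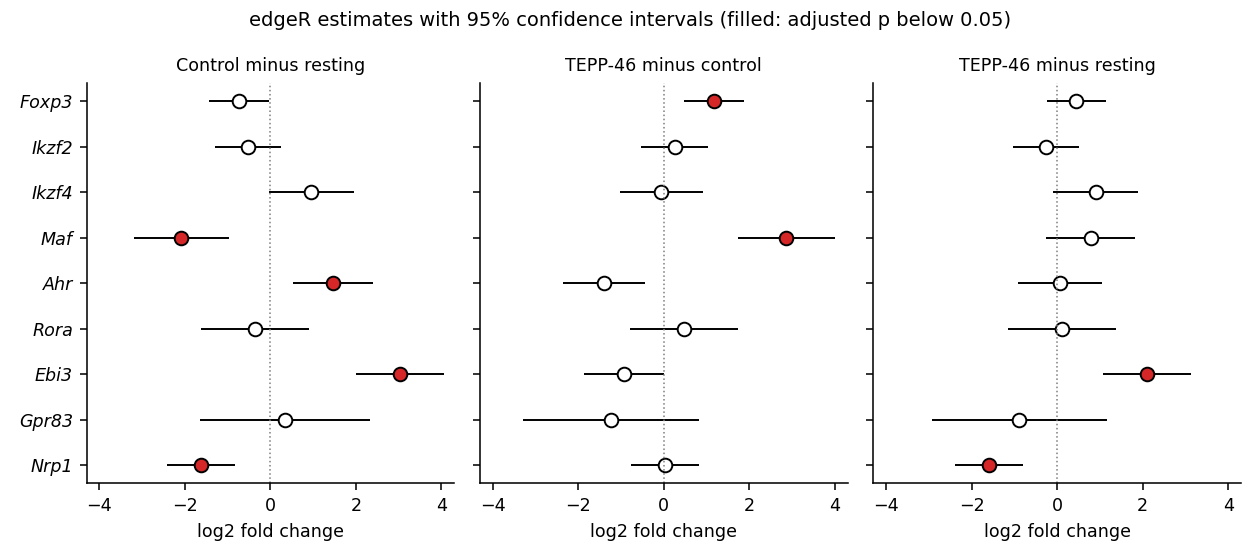
Log2 fold changes of the 9 genes in the 3 comparisons, from edgeR, with 95% confidence intervals and filled points for an adjusted p below 0.05. Maf has opposite signs in the first and second comparison, and the intervals of Gpr83 span more than 3 log2 units in each.

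Foxp3 (ENSMUSG00000039521.12, GRCm38 chromosome X, 7573644 to 7595245) encodes the forkhead factor that defines Tregs. Its level was 35.2, 68.9 and 44.0 CPM in resting replicates 1, 4 and 5, 25.4, 33.0 and 30.6 CPM in the control libraries and 44.7, 76.0 and 81.5 CPM in the TEPP-46 libraries. All control libraries lay below all resting and all TEPP-46 libraries, whereas the resting and TEPP-46 libraries overlapped. Foxp3 was 2.27-fold higher with TEPP-46 than in control cells (log2 fold change 1.18 ± 0.32 SE, 95% interval 0.48 to 1.88, adjusted p = 0.0321 in edgeR). The lower level in control than in resting cells missed the threshold (-0.73 ± 0.31, -1.43 to -0.04, adjusted p = 0.100), and TEPP-46 against resting cells gave 0.45 ± 0.31 (-0.24 to 1.14, adjusted p = 0.392). The call with TEPP-46 was lost without control replicate 1, 4 or 5 (adjusted p = 0.122, 0.0906 and 0.106) or without TEPP-46 replicate 4 or 5 (0.0601 and 0.111). Without TEPP-46 replicate 1, the fall on activation passed (adjusted p = 0.0483 in edgeR), as it did with resting replicate 1 and TEPP-46 replicate 4 both left out (0.0391), where the rise with TEPP-46 also passed (1.08, 0.0372). Exons of Flicr, a noncoding RNA on the same strand, and of Ccdc22, Ppp1r3f and Gm36995 on the other strand overlap Foxp3. Their summed counts were 67, 68, 53 and 10 in resting, 50, 32, 28 and 6 in control and 30, 64, 9 and 5 in TEPP-46 cells, against 642, 364 and 598 for Foxp3. Whether counting used strand is not stated in the labels, so such reads cannot be told apart.

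Of 28 regulators and partners of Foxp3, all of them tested, 5 rose and 5 fell on activation, and 6 rose and 2 fell with TEPP-46 against control cells. Over fits that each left out 1 library the latter counts ran from 3 to 9 and from 0 to 3. The repressor gene Bcl6 (2.03 to 22.6 CPM, log2 fold change 3.45 ± 0.39), the naive T cell factor Tcf7 (317 to 1565 CPM, 2.30 ± 0.33), the TGF-beta signal transducer Smad3 (39.9 to 103 CPM, 1.37 ± 0.20) and the repressor gene Bach2 (158 to 528 CPM, 1.74 ± 0.35) led the rises, with edgeR adjusted p of 0.00159, 0.00315, 0.0034 and 0.0117. The calls of Bcl6, Tcf7 and Smad3 held whichever library was left out. That of Bach2 was lost without control replicate 1 or 5 (highest adjusted p = 0.0659). Bcl6, Tcf7 and Smad3 fell on activation, by 2.56, 2.11 and 0.94 on the log2 scale (decreases with adjusted p of 0.00141, 0.00155 and 0.00597). The median over the 28 genes was -0.06 on activation and 0.11 with TEPP-46. In TEPP-46 against resting cells all 4 genes called were higher (1 to 6 rises and 0 to 1 falls without a library), led by the effector factor Runx3 (2.19 ± 0.30, adjusted p = 0.00272 in edgeR).

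Many surface and effector genes of Tregs are also induced in other activated T cells. Of 26 listed, 23 were tested. On activation 12 rose and 2 fell (median 1.18), and leaving out a library gave 8 to 12 rises and 0 to 2 falls. The interleukin-2 receptor alpha chain gene Il2ra rose from 43.1 to 1525 CPM (5.15 ± 0.51, adjusted p = 0.000226), and the costimulatory receptor gene Tnfrsf4 from 108 to 1305 CPM (3.60 ± 0.51, adjusted p = 0.00113). With TEPP-46 against control cells 2 rose and 1 fell (median -0.09), with 0 to 3 rises and 0 to 6 falls when a library was left out. Il2ra fell to 471 CPM (-1.70 ± 0.44, adjusted p = 0.0288 in edgeR), the ectoenzyme gene Nt5e rose from 23.6 to 76.2 CPM (1.69 ± 0.46, adjusted p = 0.0341), and the integrin gene Itgae rose from 1.48 to 11.4 CPM (2.90 ± 0.84, adjusted p = 0.0407). The calls of Il2ra and Nt5e were lost without any single control library or without TEPP-46 replicate 4 or 5 (adjusted p up to 0.129). That of Itgae was lost in 8 of 9 such fits (up to 0.142) and its level was 25.9 CPM in TEPP-46 replicate 4, beside 2.19 and 6.12 in replicates 1 and 5. Entpd1, an ectoenzyme gene of the same adenosine pathway as Nt5e, was next in order at 1.33 ± 0.41 (adjusted p = 0.0508 in edgeR). Against resting cells, all 8 genes called with TEPP-46 were higher, 1 to 10 of them when a library was left out. The interleukin-10 gene had at most 15 counts in a library and was not tested.

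Helios and Eos, zinc finger factors that stabilise the Treg programme with Foxp3, passed the test in none of the 3 comparisons in edgeR (unadjusted p of 0.055 and above). Ikzf2 (ENSMUSG00000025997.13, chromosome 1, 69531214 to 69687245) was at 117, 87.6 and 82.7 CPM in resting replicates 1, 4 and 5, at 61.3, 69.6 and 69.3 CPM in the control libraries, and at 37.6, 81.0 and 120 CPM in the TEPP-46 libraries. The control libraries lay below all resting libraries, and the TEPP-46 libraries spread over and beyond both groups. Its log2 fold change was -0.52 ± 0.35 on activation (95% interval -1.29 to 0.25) and 0.25 ± 0.35 with TEPP-46 against control cells (-0.53 to 1.03). In the fit of resting and control libraries alone, Ikzf2 was called lower on activation (-0.51, adjusted p = 0.0433 in edgeR). Ikzf4 (ENSMUSG00000002578.15, chromosome 10, 128630843 to 128645991) was at 42.9, 16.6 and 16.8 CPM in resting, 35.7, 58.6 and 54.7 CPM in control and 24.9, 59.3 and 59.0 CPM in TEPP-46 libraries. Resting replicate 1 was the highest of its group for both genes and, for Ikzf4, lay within the range of the activated libraries. Ikzf4 gave 0.96 ± 0.44 on activation (-0.02 to 1.95, adjusted p = 0.125), which became 1.57 (adjusted p = 0.0232 in edgeR) without resting replicate 1 and 1.57 (0.0133) without that library and TEPP-46 replicate 4.

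The list of the Ikaros family held 5 genes, all tested, of which 1 was called in each comparison. Ikzf3, which encodes Aiolos and is also expressed in B cells, was at 44.7, 51.6 and 59.2 CPM in control and 113, 221 and 224 CPM in TEPP-46 libraries. It was higher with TEPP-46 than in control cells (1.84 ± 0.29, adjusted p = 0.00515 in edgeR), whichever library was left out (adjusted p up to 0.0326). Against resting cells it was also higher (1.43 ± 0.29, adjusted p = 0.0149), a call lost without resting replicate 4 or 5 (up to 0.0675). Ikzf1 and Ikzf5 gave 0.43 ± 0.31 and 0.15 ± 0.23 with TEPP-46, neither called. Ikzf5 was the 1 family member called on activation, lower by -0.85 ± 0.22 (adjusted p = 0.0167 in edgeR), a call lost without any single control library (up to 0.0767).

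Maf, which encodes c-Maf, a leucine zipper factor of interleukin-10 producing, Th17 and follicular helper T cells, had the largest change with TEPP-46 of the 9 genes. Maf (ENSMUSG00000055435.6, chromosome 8, 115682942 to 115707794) was at 30.8, 30.5 and 26.3 CPM in resting replicates 1, 4 and 5. It was at 6.84, 6.21 and 7.53 CPM in the control libraries and at 14.2, 67.7 and 69.3 CPM in the TEPP-46 libraries. All control libraries lay below all others, and TEPP-46 replicates 4 and 5 lay above every resting library while replicate 1 lay below. Maf fell by 2.09 on activation on the log2 scale, a decrease of 4.24-fold (SE 0.50, adjusted p = 0.0112), and was 7.29-fold higher with TEPP-46 than in control cells (2.87 ± 0.51, 95% interval 1.73 to 4.0, adjusted p = 0.00788), both in edgeR. Both calls held whichever library was left out, with adjusted p of up to 0.0473 and 0.0445. TEPP-46 against resting cells gave 0.78 ± 0.47 (-0.25 to 1.82, adjusted p = 0.319), which passed without TEPP-46 replicate 1 (1.22, adjusted p = 0.0083). The noncoding gene Gm15655, which overlaps Maf on the other strand, had 12, 8 and 19 counts over the groups. Macrophages also express Maf. Of their markers, Lyz2 had 51, 111 and 78 counts in resting, 3, 0 and 1 in control and 6, 20 and 16 in TEPP-46 libraries. It fell on activation (-5.70, adjusted p = 0.00156 in edgeR) and was higher with TEPP-46 than in control cells (3.79, adjusted p = 0.0225), the same directions as Maf. The second call was kept in 6 of 9 fits without a library, and lost without control replicate 4 or 5 or TEPP-46 replicate 5 (up to 0.0925 in edgeR). Adgre1 had 1, 5 and 2 counts in resting, 0 in each control and 0, 64 and 6 in the TEPP-46 libraries. Cd14 had 4 in each resting library, 0, 2 and 0 in control and 5, 21 and 31 in TEPP-46 libraries, so both were highest in TEPP-46 replicates 4 and 5, where Maf was highest. Other myeloid markers followed Maf only in part or not at all. Csf1r was at 20.5 CPM in resting, 13.5 in control and 10.2 in TEPP-46 cells. Its changes were -0.61 on activation and -0.40 with TEPP-46 against control cells, neither called. Cd68 rose on activation (5.36 to 11.4 CPM, 1.08, adjusted p = 0.046 in edgeR), a call kept in 2 of 9 fits without a library. With TEPP-46 against control cells it gave -0.31 and was not called. Mpeg1 had 22, 50 and 34 counts in resting, 15, 5 and 9 in control and 116, 0 and 7 in TEPP-46 libraries. Its changes had the signs of Maf (-1.78 and 2.28, neither called), but TEPP-46 replicate 4, where Maf was high, had 0 counts. The dendritic cell marker Flt3 also had the signs of Maf (-2.97 and 3.57, neither called), with 2, 29 and 2 counts in the TEPP-46 libraries. Fcgr1 had at most 1 count in a library. The part of these cells in the Maf result was not tested.

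The list of the Maf family and its partners held 12 genes, among them the cytokine genes Il10 and Il4, and 7 were tested. On activation 1 rose and 2 fell, with 0 to 2 rises and 1 to 2 falls without a library. With TEPP-46 against control cells 1 rose and 1 fell, with 0 to 2 of each. Mafk, a small Maf protein gene without a transactivation domain, was at 90.9 CPM in resting, 19.3 in control and 23.9 in TEPP-46 cells. It fell on activation (-2.23 ± 0.27, adjusted p = 0.000541 in edgeR) and was lower in TEPP-46 than in resting cells (-1.92 ± 0.27, adjusted p = 0.00287), both whichever library was left out, and was not called between the activated groups.

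Ahr (ENSMUSG00000019256.17, chromosome 12, 35497974 to 35535038) encodes the aryl hydrocarbon receptor, a ligand-activated factor that promotes the Th17 programme. It was at 3.21, 4.73 and 4.96 CPM in resting replicates 1, 4 and 5, at 8.31, 17.7 and 9.54 CPM in the control libraries and at 4.11, 3.76 and 5.48 CPM in the TEPP-46 libraries. All control libraries lay above all others, on 34 to 74 counts per library, and resting and TEPP-46 libraries overlapped. Ahr was 2.75-fold higher in control than in resting cells (1.46 ± 0.43, adjusted p = 0.0258 in edgeR). This call was lost without resting replicate 1, 4 or 5 (adjusted p = 0.0737, 0.0682 and 0.0607) or control replicate 4 or 5 (0.142 and 0.0547). With TEPP-46 against control cells it gave -1.40 ± 0.43 (-2.36 to -0.44), and missed the threshold at an adjusted p of 0.0511 in edgeR. It was called lower there by DESeq2 (adjusted p = 0.0199) and in 4 of the other settings (0.0363 to 0.0490). TEPP-46 against resting cells gave 0.06 ± 0.44 (-0.92 to 1.04).

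Of 14 partners and targets of the receptor, 7 were tested. On activation 1 rose and 2 fell (1 to 3 falls without a library). With TEPP-46 against control cells 1 fell, and leaving out a library gave 0 to 1 rises and 0 to 2 falls. The amino acid transporter gene Slc7a5, which is listed as a target but follows T cell growth as well, rose from 25.0 to 405 CPM on activation (4.02 ± 0.89, adjusted p = 0.00769). It was at 57.9 CPM with TEPP-46 (-2.80 ± 0.84, adjusted p = 0.0462), a call lost in 8 of 9 fits without a library (up to 0.127). Tiparp, a target that feeds back on the receptor, was at 78.5, 75.8 and 69.2 CPM in resting, 52.8, 82.2 and 98.7 CPM in control and 54.8, 59.3 and 49.0 CPM in TEPP-46 libraries and was not called in any comparison. The targets Cyp1a1, Cyp1b1 and Ahrr had at most 28 counts in a library and were not tested. The 28 counts of Ahrr were in TEPP-46 replicate 4, beside 2 and 7 in replicates 1 and 5 and 0 to 3 in each of the other 6 libraries.

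Rora (ENSMUSG00000032238.17, chromosome 9, 68653786 to 69388246) encodes a nuclear receptor that promotes the Th17 programme. It was at 83.1, 17.6 and 21.5 CPM in resting replicates 1, 4 and 5, at 30.5, 36.3 and 28.9 CPM in the control libraries and at 21.7, 67.7 and 44.1 CPM in the TEPP-46 libraries. Resting replicate 1 lay above and the other resting libraries below every control library. Rora was not called in any comparison (-0.36 ± 0.57 on activation, 95% interval -1.62 to 0.90, and 0.47 ± 0.57 with TEPP-46, -0.80 to 1.74), with unadjusted p of 0.429 and above. Without resting replicate 1 its activation value was 0.70 (adjusted p = 0.252 in edgeR). Of 12 genes of the ROR and circadian clock list, which includes Rora, 11 were tested, and the 3 called with TEPP-46 against control cells were lower (1 to 3 falls and 0 to 1 rises without a library). The repressor gene Nfil3, which is tied to the circadian clock, rose from 25.1 to 127 CPM on activation (2.33 ± 0.29, adjusted p = 0.000636). It was at 37.2 CPM with TEPP-46 (-1.76 ± 0.28, adjusted p = 0.00529), both calls held whichever library was left out.

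The genes that define Th17 cells had few or no counts. Il17a had 0 counts in all 9 libraries, which allows up to 0.596 to 1.25 CPM in a library, and Il17f had at most 1 count in any. Il23r had at most 3 and Il22 at most 3 counts in a library. Of 20 Th17 genes, 11 were tested. On activation 2 rose and 4 fell (median -0.83), with 2 to 3 rises and 3 to 5 falls without a library. The factor genes Irf4 (21.3 to 184.5 CPM, 3.11 ± 0.61) and Hif1a (267 to 845 CPM, 1.66 ± 0.38) rose, with edgeR adjusted p of 0.00465 and 0.0092. Both calls held whichever library was left out. Receptors for the cytokines that start Th17 and Treg differentiation were among the falls. The TGF-beta receptor gene Tgfbr2 went from 468 to 93.7 CPM (-2.32 ± 0.23), the interleukin-6 receptor gene Il6ra from 420 to 58.7 CPM (-2.84 ± 0.42) and its signalling chain Il6st from 239 to 71.2 CPM (-1.75 ± 0.25), with edgeR adjusted p of 0.000235, 0.00136 and 0.00109. With TEPP-46 against control cells the 3 genes called were higher (median of all tested 0.42, with 2 to 5 rises without a library). Il6st was at 225 CPM (1.66 ± 0.25, adjusted p = 0.00381) and Tgfbr2 at 265 CPM (1.5 ± 0.23, adjusted p = 0.00407), both calls held whichever library was left out. The chemokine receptor gene Ccr6, which B cells also express, was at 7.40, 29.7 and 8.70 CPM in TEPP-46 and 1.67 to 3.66 in control libraries. Its call (2.51 ± 0.66, adjusted p = 0.0296) was lost without any single control library or TEPP-46 replicate 4 or 5 (up to 0.110). Against resting cells, 3 genes were higher with TEPP-46 and 2 lower (1 to 4 rises and 0 to 2 falls without a library). Hif1a led at 1921 CPM (2.85 ± 0.40, adjusted p = 0.00316 in edgeR), whichever library was left out. Il6ra (-1.77 ± 0.41, adjusted p = 0.024) and Tgfbr2 (-0.82 ± 0.22, 0.0444) stayed lower, calls kept in 7 and 1 of 9 such fits.

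Ebi3 (ENSMUSG00000003206.6, chromosome 17, 55952640 to 55957022) encodes the shared beta subunit of interleukin-27 and interleukin-35, the latter a product of Tregs. It was at 2.2, 4.21 and 2.80 CPM in resting replicates 1, 4 and 5 (11 to 16 counts each), at 36.9, 17.7 and 20.6 CPM in the control libraries and at 19.2, 7.94 and 11.9 CPM in the TEPP-46 libraries. All activated libraries of either kind lay above all resting libraries, and control and TEPP-46 libraries overlapped. Ebi3 rose 8.17-fold on activation (3.03 ± 0.47, adjusted p = 0.00156 in edgeR), whichever library was left out (up to 0.00919). TEPP-46 cells had 4.29-fold more than resting cells (2.10 ± 0.47, adjusted p = 0.021), a call lost without resting replicate 1 or 5 (0.0607 and 0.0842) and in the fit of these 2 groups alone (0.0717). TEPP-46 against control cells gave -0.93 ± 0.42 (-1.87 to 0.01, adjusted p = 0.152), which passed without TEPP-46 replicate 1 (-1.33, adjusted p = 0.0414 in edgeR). The predicted gene Gm16712 overlaps exons of Ebi3 on the other strand and had 134, 273 and 127 counts over the resting, control and TEPP-46 libraries, against 40, 307 and 126 for Ebi3. Without strand, the 2 genes cannot be told apart in the shared part.

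Partner subunits of Ebi3 were scarce, while the receptors of the family were not. Il12a, the interleukin-35 partner, had 2, 0 and 1 counts in resting, 0, 2 and 3 in control and 1, 26 and 9 in TEPP-46 libraries, and Il27 had at most 6 in a library. Of 12 genes of the interleukin-12 family list, which includes Ebi3, 8 were tested. On activation 3 rose and 2 fell, and the 3 called with TEPP-46 against control cells were higher (2 to 4 rises and 0 to 1 falls without a library). The interleukin-12 receptor gene Il12rb2 rose from 9.01 to 362 CPM on activation (5.30 ± 0.77, adjusted p = 0.00118). This call held whichever library was left out.

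Nrp1 (ENSMUSG00000025810.8, chromosome 8, 128358604 to 128503363) encodes neuropilin-1, a co-receptor for semaphorins and vascular endothelial growth factor that marks Tregs of thymic origin. It was at 30.6, 40.8 and 48.3 CPM in resting replicates 1, 4 and 5, at 18.3, 8.84 and 11.5 CPM in the control libraries and at 11.8, 9.61 and 17.7 CPM in the TEPP-46 libraries. All activated libraries lay below all resting libraries, and both activated groups covered the same range. Nrp1 was 3.09-fold lower in control (-1.63 ± 0.36, adjusted p = 0.00724) and 3.04-fold lower in TEPP-46 cells (-1.61 ± 0.36, adjusted p = 0.0212) than in resting cells in edgeR. The first call held whichever library was left out (up to 0.0387). The second was lost without resting replicate 4 or 5 (0.069 and 0.0845) and in the fit of the 2 groups alone (0.0522). TEPP-46 against control cells gave 0.02 ± 0.36, with a 95% interval of -0.78 to 0.82, and -0.12 when scaled by total counts alone. Of 17 co-receptors and ligands, 9 were tested. The 3 called on activation were higher (2 to 6 rises and 0 to 1 falls without a library), and the 2 called with TEPP-46 against control cells were lower (1 to 3 falls). The semaphorin gene Sema4c rose from 2.07 to 36.9 CPM on activation (4.11 ± 0.45, adjusted p = 0.00034) and was at 7.99 CPM with TEPP-46 (-2.2 ± 0.41, adjusted p = 0.00871), both whichever library was left out. Sema4a, a ligand of neuropilin-1 on Tregs, was at 9.81, 177 and 180 CPM in resting replicates 1, 4 and 5 and was not called.

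The 250 bases before the RefSeq starts of Ebi3 and Nrp1 are shown because these 2 genes, which are not called between the activated groups, had opposite changes on activation that were also called in TEPP-46 against resting cells. The sequences are from RefSeq on GRCm38.p6, where 5 of the 9 genes (Foxp3, Rora, Ebi3, Gpr83 and Nrp1) had an entry. Both are on the plus strand, at chr17:55952373-55952622 for Ebi3 and chr8:128358823-128359072 for Nrp1, and 0 of their bases lie in an annotated exon. The Nrp1 stretch lies inside that gene as GENCODE M21 draws it. Capitals mark the core GGAAA bound by NFAT, a factor activated by the T cell receptor.
Ebi3: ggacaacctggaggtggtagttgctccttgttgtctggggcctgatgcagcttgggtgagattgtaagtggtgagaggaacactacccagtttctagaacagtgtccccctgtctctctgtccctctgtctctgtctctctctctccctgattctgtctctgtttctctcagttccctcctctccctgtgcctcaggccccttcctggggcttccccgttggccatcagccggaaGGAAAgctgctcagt
Nrp1: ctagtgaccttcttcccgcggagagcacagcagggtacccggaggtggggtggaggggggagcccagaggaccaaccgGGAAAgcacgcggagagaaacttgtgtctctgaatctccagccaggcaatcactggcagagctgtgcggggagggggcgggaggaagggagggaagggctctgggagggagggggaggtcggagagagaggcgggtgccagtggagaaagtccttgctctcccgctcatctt
The Ebi3 stretch held 2 CpG pairs at 56.0% G and C, and the Nrp1 stretch held 11 at 64.4%. Searched on both strands, each held 1 match to GGAAA, starting 15 bases before the start of Ebi3 and 172 bases before that of Nrp1. This core was in 55.7% of 32536 such stretches of mouse promoters. Of the other motifs searched, the aryl hydrocarbon receptor core GCGTG (28.3% of stretches) and the ROR site AGGTCA (14.0%) each matched once in Nrp1 and not in Ebi3, with no overlap between matches. The letters of the AP-1 site TGANTCA (6.73%), the STAT site TTCNNNGAA (7.04%), the E-box CACGTG (6.04%), the TATA box TATAAA (12.3%) and the RUNX core TGTGGT (14.0%) were in neither stretch.

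Gpr83 (ENSMUSG00000031932.14, chromosome 9, 14860210 to 14870789) encodes a G protein-coupled receptor enriched in Tregs. It was at 1.0, 48.9 and 31.2 CPM in resting replicates 1, 4 and 5, at 15.6, 56.9 and 29.9 CPM in the control libraries and at 6.30, 18.4 and 19.3 CPM in the TEPP-46 libraries. Replicate 1 was the lowest library of each group, with 5 counts in resting replicate 1 against 186 and 145 in the other resting libraries. Gpr83 was not called in any comparison (0.34 ± 0.89 on activation, -1.64 to 2.32, and -1.23 ± 0.93 with TEPP-46, -3.29 to 0.83), with unadjusted p of 0.214 and above. It was -0.23 on activation without resting replicate 1 and -0.24 without control replicate 4, but 0.84 with the replicate number as a block and 1.47 in limma-voom (adjusted p = 0.324, not called).

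The TEPP-46 libraries differed among themselves in most of the 9 genes. Replicate 1 was the lowest of the 3 for 6 genes (Foxp3, Ikzf2, Ikzf4, Maf, Rora and Gpr83), the middle for Ahr and Nrp1 and the highest for Ebi3. Relative to the control mean on the log2 CPM scale, Maf stood at 1.0, 3.21 and 3.25 in replicates 1, 4 and 5, and Foxp3 at 0.59, 1.35 and 1.45. Ahr stood at -1.34, -1.46 and -0.97, so all 3 libraries were on the same side of the control mean for these 3 genes. Ikzf2, Ikzf4 and Rora were below the control mean in replicate 1 (-0.82, -0.95 and -0.54) and above it in replicates 4 and 5 (0.28 to 1.08). Replicates 4 and 5 are the libraries with high Malat1 and platelet markers. The part of those in the result was not tested.

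**Figure D4:**
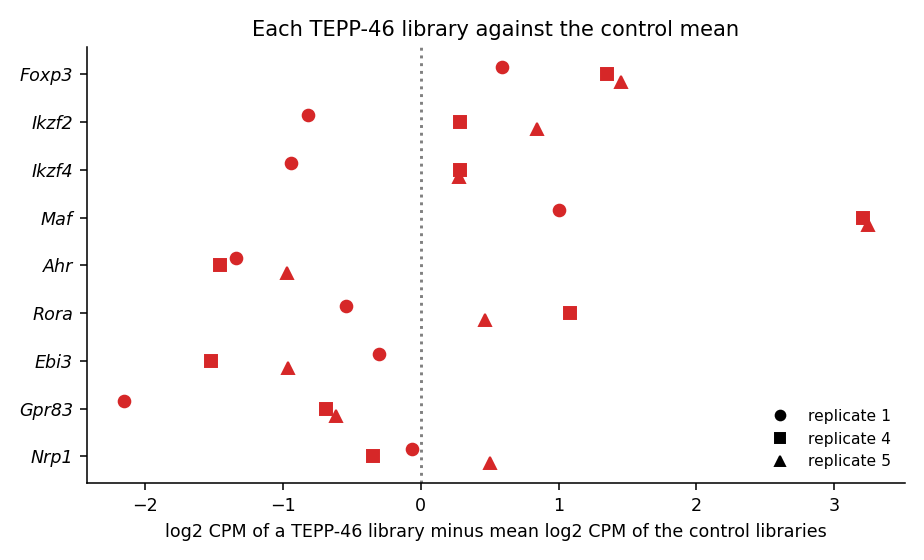
Difference between each TEPP-46 library and the mean of the control libraries, on the log2 CPM scale, with circles, squares and triangles for replicates 1, 4 and 5. Foxp3 and Maf lie above and Ahr, Ebi3 and Gpr83 below the control mean in all 3 libraries, while Ikzf2, Ikzf4, Rora and Nrp1 lie on both sides.

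Levels of different genes were compared per kb of annotated exon (CPM per kb). In resting cells Foxp3 was first with 10.8 ± 3.82 (SD, n = 3), followed by Ikzf2 (8.23 ± 1.58), Gpr83 (5.31 ± 4.76), Ikzf4 (4.24 ± 2.52), Nrp1 (4.08 ± 0.90), Maf (3.54 ± 0.31), Rora (3.12 ± 2.81) and Ebi3 (2.66 ± 0.89), with overlapping libraries between all neighbours. Ahr was last at 0.70 ± 0.15, apart from Ebi3. In control cells Ebi3 was first at 21.7 ± 8.97, apart from Ikzf4 at 8.28 ± 2.04. Gpr83, Foxp3 and Ikzf2 came next at 6.70 to 5.75, overlapping their neighbours in the order, and Rora, Ahr, Nrp1 and Maf lay at 2.44 ± 0.30, 1.92 ± 0.83, 1.32 ± 0.50 and 0.83 ± 0.08, with a gap between Ikzf2 and Rora. In TEPP-46 cells Foxp3 was first again at 14.7 ± 4.34, overlapping Ebi3 at 11.3 ± 4.94. Maf was the fifth there at 6.12 ± 3.80, and Ahr was last at 0.72 ± 0.15, apart from Nrp1 at 1.33 ± 0.43.

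**Figure D5:**
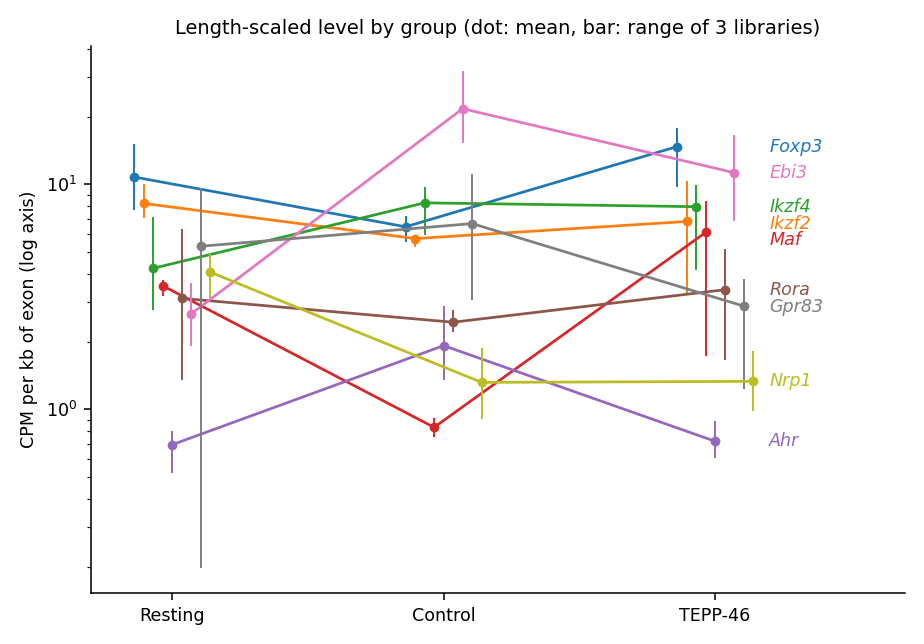
Length-scaled level of each gene in the 3 groups, in CPM per kb of exon on a log axis, with dots at the mean and bars over the range of 3 libraries. Ebi3 is near the bottom in resting cells and at the top in control cells, and Maf is last in control cells only.

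Over the 9 libraries, Foxp3 and Maf had the most similar profiles among the members, with a Pearson correlation of log2 CPM of 0.879. Maf and Ahr, and likewise Ikzf4 and Nrp1, were the most opposed, at -0.744. These correlations describe 9 libraries in 3 groups and share the group differences. Among 8676 named genes with a mean of at least 10 CPM, the profiles most like that of Maf were those of Rab31, Cmtm3 and Ostm1 (0.984, 0.984 and 0.983). The profiles most like that of Foxp3 were those of Dennd1c, Idua and Aak1 (0.965, 0.962 and 0.96). Dennd1c was at 146 CPM in resting, 64.8 in control and 246 in TEPP-46 cells. Ebi3 was closest to Ccdc50, Il2ra and Tmem138 (0.979, 0.969 and 0.967), and Nrp1 to Fam234b, Cltb and Exd2 (0.968, 0.968 and 0.965). Ahr was closest to Apoh, Crtap and Edc3 (0.958, 0.934 and 0.931), Ikzf4 to Zmym4, Rest and Kif3a (0.979, 0.963 and 0.959) and Ikzf2 to Usp53, Galt and Washc1 (0.942, 0.925 and 0.922). Rora was closest to Ell, Gmfb and Cmip (0.952, 0.942 and 0.936) and Gpr83 to Ifi27, Acap1 and Tespa1 (0.936, 0.929 and 0.924).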

How the data were processed

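RNA-seq counts of 9 libraries were used. The deposited table holds the authors' raw counts, 1 row per gene, with no normalization. The submitters' processing notes list GRCm38 and DESeq2. No source used here names the aligner, counting program, strand setting or annotation. Per the labels' protocols, total RNA went into NEBNext low-input libraries for an Illumina HiSeq. Of 47937 identifiers, 47224 were paired with a GENCODE M21 symbol (39106 with the same version), which also gave the coordinates (GRCm38, counted from 1).

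Genes were filtered with filterByExpr (minimum count 10, minimum total 15), leaving 12536 of 23436 genes with a count. Counts were scaled by TMM and fitted by group over all 9 libraries with glmQLFit and glmQLFTest (edgeR 4.0.16, R 4.3.3), with 6 residual degrees of freedom and a common dispersion of 0.1086. Tests were two-sided, with Benjamini-Hochberg adjustment over 12536 genes and a threshold of 0.05. SEs and 95% intervals come from the same fit, and log2 CPM had 2 as prior count. The procedure was checked on simulated counts, where 200 genes were changed by 2 on the log2 scale in the control group. It recovered 127 of them on activation and 116 with TEPP-46 against control cells, with 8 and 4 false calls. Changes of that size can therefore be missed. The members and the 17 lists (9 of related genes, 8 of markers, T cell identity and RNA quality) were chosen with earlier results of these data known. From each related list, up to 4 genes in order of adjusted p were named, with the 3 most correlated genes per member. Genes named outside this rule (untested genes, Tiparp, Sema4a, overlapping genes and single marker genes) were chosen after their values were seen. Alternatives were other scalings (RLE, upper quartile, total counts), no filter or at least 5 CPM in 3 libraries, DESeq2 1.42.0, limma-voom (limma 3.58.1), a fit of each 2 groups alone, a block for the replicate number, and each library left out in turn. Leaving out resting replicate 1 and TEPP-46 replicate 4 together was added after seeing the data. Some results are not reported here.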

Additional observations from a re-analysis of the deposited data

How the results depend on the processing

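The calls of Maf on activation and with TEPP-46, and of Ebi3 and Nrp1 on activation, were kept under every alternative run. The number of genes called ran from 2316 to 5194 on activation, from 395 to 4407 with TEPP-46 against control and from 426 to 1897 with TEPP-46 against resting cells when 1 library was left out (3914, 2025 and 1289 with all). The members called ran from 3 to 5, from 1 to 3 and from 0 to 3. DESeq2 called 3057 genes with TEPP-46 against control and 2090 against resting cells. For TEPP-46 against resting cells, the fit of these groups alone called 400 genes and 0 members, and leaving out resting replicate 1 and TEPP-46 replicate 4 together, chosen after seeing the data, called 1938 genes. Deviations from the group means correlated weakly between same-numbered libraries (-0.124 to 0.0893 over 9 pairs and 12536 genes). Between libraries of different number the correlations were -0.108 to 0.123. With 3 libraries per group such values cannot show whether same-numbered samples share an animal or a preparation, which the labels do not state. With the replicate number as a block, 3339, 1384 and 705 genes were called, no member's call changed, and Nrp1 with TEPP-46 against control was -0.00027. Signs turned only in members that were not called. For Nrp1 in that comparison the values were -0.015 (RLE), -0.12 (total counts), -0.012 (no filter) and -0.014 (DESeq2), and -0.26 to 0.35 without 1 library. Gpr83 in limma-voom was 0.23 in TEPP-46 against resting cells and 1.47 on activation. With both libraries left out, Rora and Gpr83 on activation were 0.70 and -0.23, and Ahr in TEPP-46 against resting cells was -0.027. Without 1 library, activation gave -0.72 to 0.70 for Rora and -0.24 to 1.08 for Gpr83, TEPP-46 against control gave -0.18 to 0.59 for Ikzf2 and -0.26 to 0.24 for Ikzf4, and TEPP-46 against resting cells gave -0.70 to 0.066 for Ikzf2, -0.12 to 0.17 for Ahr and -0.32 to 1.17 for Rora. The cause of these changes was not tested. Low counts limit the precision of Ahr (9 to 74 counts in a library) and of Ebi3 in resting cells (11 to 16). The 5 counts of Gpr83 were in the deepest library.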
